A study of Mus musculus with 4 samples.

Results

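Choroid plexus epithelium was taken as the nuclei that carried at least 3 of 7 genes known from this tissue, Ttr, Htr2c, Otx2, Kl, Folr1, Clic6 and Kcne2, with at least 1 UMI each. At least 1 of these had to be a gene other than Ttr or Htr2c, and at most 2 of the ependymal genes Foxj1, Ccdc153, Tmem212 and Dnah12 were allowed. Barcodes needed at least 500 UMIs, and no mitochondrial maximum was set. A UMI is a molecular tag that counts each captured RNA once. The rule selected 109 of 17802 barcodes. These were 24 and 25 in cKO replicates 1 and 2, and 20 and 40 in WT replicates 1 and 2.

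Nuclear RNA of untreated C57BL/6 mice was measured at postnatal day 14 in 4 single-nucleus libraries, made from snap-frozen hemispheres with 10x Genomics 3′ chemistry. The 2 cKO libraries were Slc17a6-Cre, Ago2 flox/flox (a conditional knockout), and the 2 WT libraries were Slc17a6-Cre, Ago2 wt/wt, so by the labels both groups held the Cre. The CRE feature of the count tables had 0 UMIs in every barcode, so the counts do not check this. Slc17a6 encodes the vesicular glutamate transporter VGLUT2, so this Cre acts in cells with a history of VGLUT2 expression, mainly glutamatergic neurons. The labels do not say whether replicate libraries stem from different mice or from pools, so the p-values reflect library-to-library spread, which may be technical. Genotype and preparation batch, which was not given, cannot be told apart.

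The choroid plexus is a sheet of ciliated epithelium in the brain ventricles that secretes cerebrospinal fluid. Sodium, chloride and bicarbonate transporters on both faces of the cell drive the fluid, tight junctions seal the sheet, and the cells make transthyretin (Ttr), a carrier of thyroid hormone and retinol. Ago2, of the Argonaute family, holds miRNAs and silences the mRNAs with which they pair.

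The label was checked with 12 choroid plexus genes that the rule did not use. These were Slc4a5, Kcnj13, Enpp2, Sostdc1, Prlr, Aqp1, Car12, Igf2, Lmx1a, Cldn2, Slc13a4 and Calml4. The label held for part of the nuclei only. The 66 nuclei with at least 4 of the 7 rule genes had a median of 7 of these 12 genes (range 2 to 11), and 62 of the 66 had at least 4. The 43 nuclei with exactly 3 rule genes had a median of 1 (range 0 to 6), 20 of them had none, and 3 had at least 4. The 66 had medians of 50 Ttr UMIs and 101.5 Htr2c UMIs per nucleus, against 1 and 2 in the 43. Of the 43, 33 had at most 1 Ttr UMI. Ttr and Htr2c are rule genes, so their UMIs describe the 66 and the 43 and are no check of the label. Markers of neurons took 0.563% of the UMIs of the 66 nuclei and 1.94% of those of the 43.

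**Figure D1:**
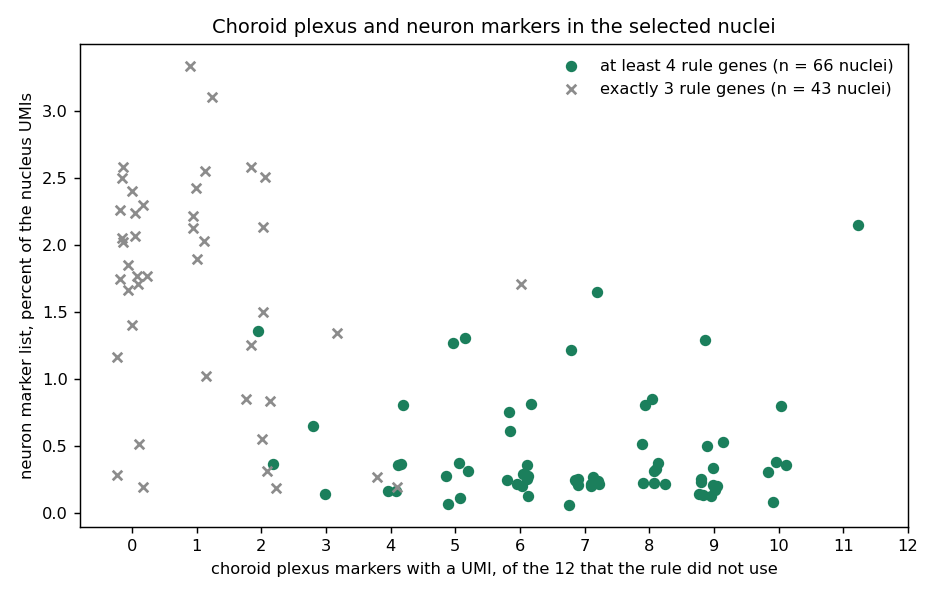
Each point is 1 of the 109 selected nuclei. The x axis gives how many of the 12 choroid plexus genes outside the rule had a UMI, the y axis the percent of the UMIs of the nucleus that fell on 11 neuron markers. Circles are the 66 nuclei with at least 4 rule genes, which lie mostly at 4 or more choroid genes and under 1%; crosses are the 43 nuclei with exactly 3 rule genes, of which 39 lie at 0 to 2 choroid genes. Points are spread sideways a little so that they do not cover each other.

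The data thus went against the label for most of the 43 nuclei with 3 rule genes. The 66 nuclei with more are called the marker-rich nuclei from here on. The gene groups are described in them by level, while the leading genes and the genes with the smallest p were taken over all 109. Tests between genotypes are given for all 109 and for the 66. The marker-rich nuclei numbered 16 and 16 in the cKO libraries and 13 and 21 in the WT libraries. Just outside the rule, 656 barcodes had exactly 2 rule genes, with a median of 1 Ttr UMI and 0 of the 12 other genes. The ependymal maximum left out 2 barcodes. Among the 17693 barcodes that were not selected, 8.03% and 10.9% in the cKO libraries and 10.7% and 11.9% in the WT libraries had a Ttr UMI. For Htr2c, which some neurons express, these shares were 19.2% and 21.4% in cKO, and 16.7% and 21.7% in WT. Median depths were 5196.5 and 5564 UMIs in the selected cKO nuclei and 4081.5 and 7634 in the selected WT nuclei. In the unselected barcodes they were 2253 and 2381 UMIs in cKO and 2293 and 3012 in WT.

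The marker-rich nuclei held 144396 and 110697 UMIs in the cKO libraries and 68155 and 180907 in the WT libraries. Levels are CPM values, the UMIs of a gene scaled by all UMIs of the nuclei summed in that library. A single UMI was therefore worth 6.93 and 9.03 CPM in cKO and 14.7 and 5.53 CPM in WT. No barcode was selected in more than 1 library, and 1 selected barcode also occurred unselected in another. No doublet caller was run. The deepest nucleus, in cKO replicate 1, had 44759 UMIs, 23.1% of the UMIs of the selected nuclei of that library, 11 of the 12 choroid genes and 963 neuron marker UMIs. It held 31.0% of the UMIs of the marker-rich nuclei of that library.

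Among the rule genes, Ttr and Htr2c had UMIs in all 66 marker-rich nuclei. Their levels are a description, since they chose the nuclei. Ttr stood at 8089 and 7317 CPM in cKO and 7688 and 8419 CPM in WT. Htr2c, a serotonin receptor, stood at 19807 and 19368 CPM in cKO and 15215 and 18424 CPM in WT. The groups overlapped for Ttr, and Htr2c was higher in both cKO libraries. Among all genes tested in these nuclei, 17.1% did not overlap with cKO higher. These summed levels leaned on single nuclei. In WT replicate 2 a nucleus with 45.8% mitochondrial UMIs held 595 of the 1523 Ttr UMIs. In cKO replicate 1 the deepest nucleus held 31.0% of all UMIs. Its Ttr share was the lowest of that library's marker-rich nuclei, and its Htr2c share was below their median. Levels of Ttr and Htr2c without these nuclei were not computed. Clic6, a chloride channel-like protein, was found in 61 of the 66 nuclei, the transcription factor Otx2 in 51, the ageing-related membrane protein Kl in 43, the folate receptor Folr1 in 42 and the potassium channel subunit Kcne2 in 28.

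Single nuclei differed widely in both genes. Per 10000 UMIs, Ttr ranged from 15.4 to 585 with a median of 75.5, and Htr2c from 2.03 to 452 with a median of 195. Across the 66 nuclei the rank correlation of Ttr with Htr2c was -0.06, and that of Ttr with the total UMIs of the nucleus was -0.46. The nuclei share 4 libraries and each value contains the same total, so both are descriptions.

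Outside the rule, the genes that stood furthest above the unselected barcodes were named from those with at least 50 CPM in the selected nuclei of every library. The ratio is a description, since the rule chose the nuclei. Gmnc led over the 109 nuclei, at 1005 and 1875 CPM in cKO and 1256 and 1158 CPM in WT, with a mean 617 times that of the unselected barcodes. Gmnc encodes geminin coiled-coil protein, a switch for making many cilia (chr16:26957235-26991675, GRCm38). Tmem72, a membrane protein gene (chr6:116691539-116716982), had a ratio of 458, and Slc4a5, the bicarbonate transporter NBCe2 (chr6:83207580-83304945), one of 195. Rbm47, an RNA-binding protein gene (chr5:66016549-66151954), had a ratio of 90.3, and Lmx1a, a transcription factor of the roof plate from which the choroid plexus grows, one of 63.6. Trpv4, an osmosensitive cation channel, had 54.7, and Otx2os1, an RNA transcribed beside Otx2, had 39.8. The collagen genes Col8a1, Col8a2 and Col4a3, the cadherin gene Cdh3, the folate receptor gene Folr2, the retinoid transporter gene Abca4 and Oca2, a pigment cell transporter gene, were among the 25. The 89 ependymal nuclei, barcodes with at least 3 of the 4 ependymal genes, had higher means for Col8a2, 4833427G06Rik and Lrriq1 of the 25. These were 123, 375 and 900 CPM, against 116, 153 and 458 CPM in the selected nuclei. Over the 66 marker-rich nuclei the order differed at the top. The RNA gene Gm36879 and the defensin gene Defb9 came first, with means of 94.5 and 92.2 CPM, against 0.0192 and 0.0427 CPM in the unselected barcodes. Gmnc was the third there, at 1330 and 2791 CPM in cKO and 1834 and 2012 CPM in WT, with a ratio of 928.

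**Figure D2:**
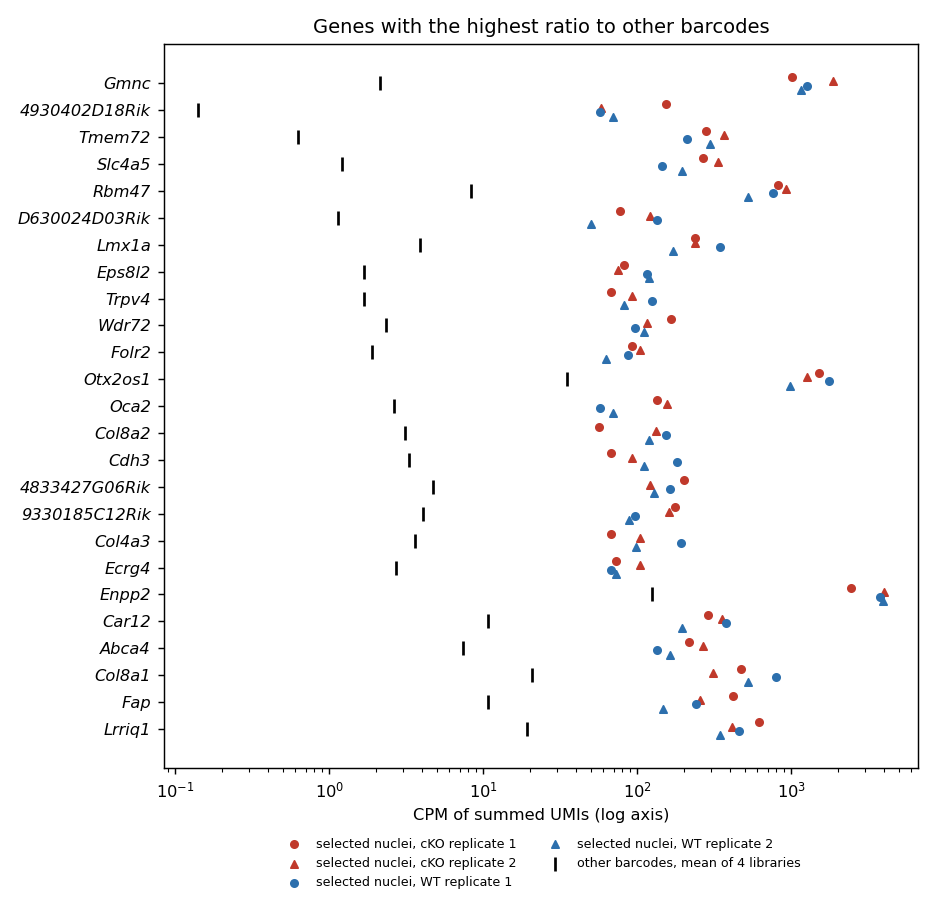
The 25 genes outside the rule with the highest ratio of mean CPM in the 109 selected nuclei to the unselected barcodes, ordered by that ratio. Red symbols are the cKO libraries, blue symbols the WT libraries, and black bars the mean of the unselected barcodes on a log axis; Gmnc, at the top, stands 617 times above its bar, and the 4 libraries lie within a few-fold of each other for each gene.

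Of these 25 genes and the 7 rule genes, 21 had a promoter that was searched. Promoters came from the RefSeq table (GRCm38.p6), which covers 250 bases before and 50 after each gene start. For these genes, promoters on a single chromosome were left out. Otx2 is a homeodomain factor of the class that binds TAATCC. The letters TAATCC or their reverse complement GGATTA, which overlap no other motif searched, occurred in a promoter of 3 of the 21 genes (14.3%). Among the 27025 genes with a promoter in the table, with no chromosome left out, the share was 8.14%. The 3 promoters are shown because they belong to Otx2 itself and to a pair of the leading genes, with the match in capitals. The Otx2 promoter lies at chr14:48665060-48665359 on the minus strand, with the match 211 bases before the start. The Rbm47 promoter lies at chr5:66151905-66152204 on the minus strand, with the match 220 bases before the start. The Abca4 promoter lies at chr3:122044210-122044509 on the plus strand, with the match 58 bases before the start.
Otx2: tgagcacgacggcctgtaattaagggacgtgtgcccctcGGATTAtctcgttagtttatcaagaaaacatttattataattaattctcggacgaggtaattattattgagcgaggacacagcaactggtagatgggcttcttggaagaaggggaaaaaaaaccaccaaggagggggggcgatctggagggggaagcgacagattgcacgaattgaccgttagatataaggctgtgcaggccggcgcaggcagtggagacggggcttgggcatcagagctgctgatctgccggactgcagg
Rbm47: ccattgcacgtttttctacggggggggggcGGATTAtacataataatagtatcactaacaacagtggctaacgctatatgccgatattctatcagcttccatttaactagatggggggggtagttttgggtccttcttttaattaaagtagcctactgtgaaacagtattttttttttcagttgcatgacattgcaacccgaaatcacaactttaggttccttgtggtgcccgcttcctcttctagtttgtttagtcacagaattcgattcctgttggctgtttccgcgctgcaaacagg
Abca4: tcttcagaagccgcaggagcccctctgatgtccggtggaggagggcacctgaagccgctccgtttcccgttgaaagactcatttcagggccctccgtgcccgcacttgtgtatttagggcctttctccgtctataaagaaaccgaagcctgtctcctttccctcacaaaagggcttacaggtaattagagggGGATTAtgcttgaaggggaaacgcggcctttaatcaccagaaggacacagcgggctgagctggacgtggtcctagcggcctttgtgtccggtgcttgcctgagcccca

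Htr2c and the calcium-permeable channel gene Trpm3 also carry miRNAs inside their introns. Trpm3 stood at 18505 and 26713 CPM in the marker-rich nuclei of cKO and at 19236 and 20298 CPM in WT, against a mean of 2010 CPM in the unselected barcodes. Of 33 genes searched in RefSeq (GRCm38.p6), the 7 rule genes, the 25 leading genes and Trpm3, these were the 2 with a mature miRNA inside. The Htr2c gene (chrX:146962464-147197277, plus strand) holds 11 mature miRNAs from 7 hairpins, and the Trpm3 gene (chr19:22137797-22995410, plus strand) holds both arms of miR-204. All 13 lie in introns and have 13 different seeds, bases 2 to 8, shown in capitals. The sequences of miR-204 and of the last hairpin in Htr2c are shown because the miRNAs share the transcripts of these abundant hosts. The arms of miR-204 lie at chr19:22750610-22750631 and chr19:22750649-22750669, those of miR-448 at chrX:147158221-147158242 and chrX:147158281-147158302. The 3′ counts measure host transcripts and not the mature miRNAs.
mmu-miR-204-5p: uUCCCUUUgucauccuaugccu
mmu-miR-204-3p: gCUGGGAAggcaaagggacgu
mmu-miR-448-5p: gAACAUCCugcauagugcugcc
mmu-miR-448-3p: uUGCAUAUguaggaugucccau

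Of 20 genes of fluid secretion and ion transport, 19 had UMIs in the marker-rich nuclei, and 15 were above the unselected barcodes in every library. The bicarbonate importer Slc4a10 stood at 2375 and 2475 CPM in cKO and 2304 and 2261 CPM in WT, against a mean of 242 CPM in the unselected barcodes. Stk39, the kinase SPAK that acts on chloride cotransporters, had 2355 and 1852 CPM in cKO and 2920 and 2637 CPM in WT. Slc4a5 had 353 and 506 CPM in cKO and 220 and 337 CPM in WT, against a mean of 1.21 CPM in the unselected barcodes and 0 in ependymal nuclei. For Slc4a10 and Slc4a5 the cKO libraries were both higher than the WT libraries, and for Stk39 both lower. Over all genes tested in the marker-rich nuclei the groups did not overlap for 31.4%, 17.1% with cKO higher and 14.2% with cKO lower.

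The sodium, potassium and chloride cotransporter Slc12a2 had 609 and 361 CPM in cKO and 220 and 503 CPM in WT, so the groups overlapped. The carbonic anhydrase Car12 had 367 and 551 CPM in cKO and 558 and 321 CPM in WT. The potassium channel Kcnj13 had 118 and 298 CPM in cKO and 264 and 298 CPM in WT. Aqp1, the water channel of the apical face, had 10 of 66 nuclei with a UMI, at 48.5 and 9.03 CPM in cKO and 14.7 and 11.1 CPM in WT, against a mean of 0.582 CPM in the unselected barcodes. Slc5a3, a transporter of myo-inositol, had no UMI.

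**Figure D3:**
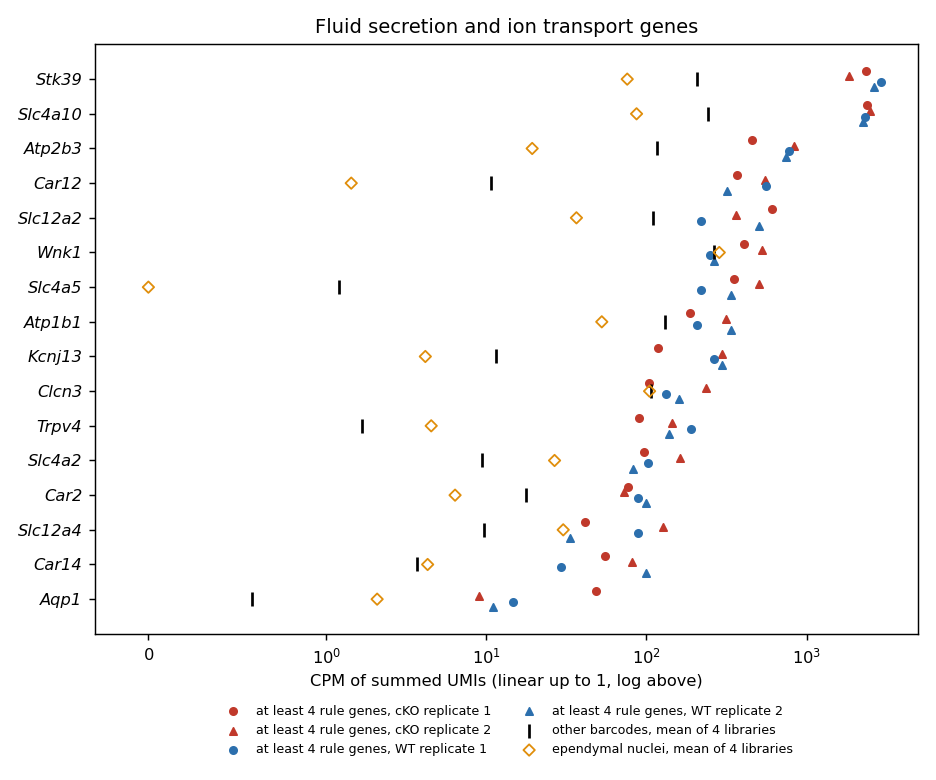
CPM of 16 genes of fluid secretion and ion transport in the marker-rich nuclei, with an axis that is linear up to 1 and log above. Filled symbols are the libraries (red cKO, blue WT), black bars the mean of the unselected barcodes and open diamonds the mean of the 89 ependymal nuclei; Slc4a5, Car12 and Trpv4 stand far to the right of both.

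All 20 genes for the transport of organic solutes and metals had UMIs, and 14 were above the unselected barcodes in every library. The thyroid hormone transporter Slco1c1 stood at 298 and 506 CPM in cKO and 337 and 271 CPM in WT, against a mean of 147 CPM in the unselected barcodes. The vitamin C transporter Slc23a2 stood at 381 and 678 CPM in cKO and 690 and 553 CPM in WT. The sulfate transporter Slc13a4 stood at 145 and 461 CPM in cKO and 161 and 249 CPM in WT. The groups overlapped for these 3 genes. The organic anion transporter Slc22a8 (OAT3) had 9 and 12 UMIs in cKO and 0 and 1 UMI in WT, too few for the genotype test.

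Of 20 genes for secreted factors, 14 were above the unselected barcodes in every library. Enpp2 (autotaxin, which makes lysophosphatidic acid) had UMIs in all 66 nuclei, at 3130 and 6116 CPM in cKO and 5414 and 6694 CPM in WT, against a mean of 124 CPM in the unselected barcodes. Igfbp2, which binds insulin-like growth factors, stood at 132 and 280 CPM in cKO and 220 and 365 CPM in WT. The growth factor Igf2 had UMIs in 9 of 66 nuclei, at 62.3 and 18.1 CPM in cKO and 0 and 11.1 CPM in WT. The protease inhibitor gene Cst3 was lower in both cKO libraries, at 118 and 117 CPM, against 381 and 216 CPM in WT. Of all genes tested in these nuclei 14.2% did not overlap with cKO lower.

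Of 15 genes for receptors and endocytosis, 4 were above and 4 below the unselected barcodes in every library. Prlr, the prolactin receptor, stood at 132 and 244 CPM in cKO and 205 and 210 CPM in WT, against a mean of 14.4 CPM in the unselected barcodes. Lrp2, the endocytic receptor megalin, had no UMI in the marker-rich nuclei and a mean of 67.7 CPM in the ependymal nuclei. The transferrin receptor Tfrc had 6.93 and 0 CPM in cKO and 29.3 and 16.6 CPM in WT, against a mean of 76.3 CPM in the unselected barcodes.

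Of 16 genes for epithelial junctions and polarity, 7 were above the unselected barcodes in every library. The tight junction gene Cldn2 stood at 83.1 and 90.3 CPM in cKO and 88.0 and 27.6 CPM in WT, and Cldn1 at 111 and 54.2 CPM in cKO and 44.0 and 22.1 CPM in WT. Both had means under 1 CPM in the unselected barcodes. Cldn1, with UMIs in 18 of the 66 nuclei, was higher in both cKO libraries, and Cldn2 overlapped. Of all genes tested in these nuclei 17.1% did not overlap with cKO higher. Tjp1, a scaffold of junctions that neurons also express, was lower than in the unselected barcodes in every library, at 139 and 325 CPM in cKO and 147 and 221 CPM in WT.

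Among 14 transcription factors of the roof plate and choroid lineage, 11 had UMIs, and 7 were above the unselected barcodes in every library. Lmx1a stood at 305 and 352 CPM in cKO and 528 and 298 CPM in WT, and Rfx3, a regulator of cilia genes, at 928 and 1274 CPM in cKO and 895 and 978 CPM in WT. Of 16 genes of the motile cilium, all had UMIs and 12 were above the unselected barcodes in every library. Their summed level was 2244 and 3370 CPM in cKO and 3653 and 2952 CPM in WT, and each of the 16 had a lower mean than in the ependymal nuclei. The ependymal nuclei were chosen by at least 3 of the cilia genes Foxj1, Ccdc153, Tmem212 and Dnah12. In the selected nuclei the rule allowed at most 2 of these same genes, a limit that left out 2 barcodes. The part of the selection in the lower level was not tested. Spag16, a protein of the central pair of the axoneme, stood at 582 and 1328 CPM in cKO and 1467 and 1188 CPM in WT, against a mean of 1736 CPM in the ependymal nuclei. Cfap299, another cilium gene, had 97.0 and 45.2 CPM in cKO and 44.0 and 105 CPM in WT, against 3235 CPM in the ependymal nuclei. Tmem212 and Ccdc153 had no UMI in the marker-rich nuclei, where the rule allowed at most 2 of the ependymal genes.

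The choroid plexus of the fourth ventricle arises from the hindbrain, where Hox genes mark position. None of 11 Hox genes had a UMI in the 66 marker-rich nuclei, which allows a share of nuclei with a Hox UMI of up to 4.55%, for counting error only. This limits nuclei with a UMI and not nuclei that express a Hox gene. Over all selected nuclei, 1 of 25 in cKO replicate 2 had one, and none in the other 3 libraries (two-sided exact permutation test, p = 1). In the unselected barcodes 1.72% and 1.45% had one in cKO and 1.29% and 1.21% in WT. Of 7 genes that mark forebrain position, at least 1 had a UMI in 1 and 3 marker-rich nuclei of cKO and in 2 and 3 of WT.

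Of 15 genes of the miRNA pathway, all had UMIs in the marker-rich nuclei. Ago2 stood at 83.1 and 181 CPM in cKO and 103 and 122 CPM in WT, against a mean of 83.0 CPM in the unselected barcodes. In the 109 nuclei it had 14 and 31 UMIs in cKO and 11 and 37 UMIs in WT. Its log2 change, cKO over WT, was 0.10 (SE 0.43) in the 109 nuclei by edgeR's quasi-likelihood test, adjusted p = 1.00, and 0.15 (SE 0.49) in the 66. Without cKO replicate 2 it was -0.67 (SE 0.51, adjusted p = 0.911). The deleted exons were not named and the counts come from 3′ ends, so this level does not check the genotype labels. Slc17a6, the gene whose promoter drives the Cre, had 4 and 0 UMIs in cKO and 3 and 0 UMIs in WT in the marker-rich nuclei.

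Markers of other cell types were counted beside these levels. The 11 neuron markers summed to 9599 and 2511 CPM in the cKO marker-rich nuclei and 5077 and 4577 CPM in WT, against 19755 and 15945 CPM in the unselected barcodes of cKO and 14736 and 17215 CPM in those of WT. The deepest nucleus held 963 of the 1386 neuron marker UMIs behind the value of cKO replicate 1, which was 4245 CPM without it. The 9 oligodendrocyte lineage markers summed to 623 and 605 CPM in cKO and 5561 and 1548 CPM in WT, and the 8 astrocyte markers to 388 and 1744 CPM in cKO and 2773 and 2311 CPM in WT. Both lists were lower in both cKO libraries. Of all genes tested in these nuclei 14.2% did not overlap with cKO lower. In the unselected barcodes the oligodendrocyte list was also lower in cKO, at 1385 and 1198 CPM against 3356 and 1496 CPM in WT. The astrocyte list overlapped there, at 2561 and 2561 CPM in cKO and 3154 and 2354 CPM in WT. In the marker-rich nuclei the astrocyte levels leaned on few nuclei. These markers took 1.26% of 10493 UMIs in a nucleus of WT replicate 1. In WT replicate 2 they took 0.967% of 18716 UMIs and 1.27% of 10933 UMIs in single nuclei. The highest share in cKO was 0.908% of 4844 UMIs, in cKO replicate 2. The oligodendrocyte lineage levels leaned on few nuclei as well. Those markers took 2.92% of 4001 UMIs and 1.10% of 10493 UMIs in single nuclei of WT replicate 1. Single nuclei of WT replicate 2 had 1.05% of 4766 UMIs and 0.821% of 13037 UMIs. Their highest share in cKO was 0.537% of 2606 UMIs, in cKO replicate 2. Levels without these nuclei were not computed. In the marker-rich nuclei of every library 1 to 4 astrocyte markers and 1 to 3 oligodendrocyte markers were at 0, Olig2 among them in all 4. Of the 9 macrophage and microglia markers, C1qa, Ptprc, Pf4 and Cd74 were at 0 in all 4 libraries, while the chemokine receptor gene Cx3cr1 had UMIs in 60.6% of the nuclei, at 76.2 and 126 CPM in cKO and 249 and 133 CPM in WT, against a mean of 29.2 CPM in the unselected barcodes. Endothelial markers summed to 104 and 63.2 CPM in cKO and 176 and 82.9 CPM in WT. Erythrocyte genes summed to 62.3 and 45.2 CPM in cKO and 44.0 and 88.4 CPM in WT. Both sums were higher in the unselected barcodes of every library. Fibroblast and mural markers summed to 187 and 343 CPM in cKO and 675 and 210 CPM in WT. Their sums were lower in the unselected barcodes of every library, at 98.4 and 231 CPM in cKO and 519 and 182 CPM in WT.

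The mitochondrial percent of the selected nuclei was asked for because the rule set no maximum. Over the summed UMIs it was 0.909% and 1.82% in cKO and 2.26% and 2.89% in WT, lower in both cKO libraries (two-sided exact permutation test, p = 0.333, the smallest that 2 against 2 libraries allow). In the marker-rich nuclei it was 1.10% and 1.49% in cKO and 1.94% and 4.30% in WT. The value of WT replicate 2 rested on 2 nuclei, with 45.8% of 12920 UMIs and 44.8% of 2547 UMIs. Without them WT replicate 2 had 0.705%, below both cKO libraries, and the groups overlapped (exact permutation p = 1). The marker-rich nuclei of WT replicate 2 then had 1.10%, and the groups overlapped there too (exact permutation p = 0.667). The median over nuclei was 0.395% and 0.486% in cKO and 1.05% and 0.165% in WT, so by this measure the groups overlapped (exact permutation p = 1). Single nuclei reached 3.51% and 17.9% in cKO and 26.9% and 45.8% in WT. At least 5% was found in 0 and 3 selected nuclei of cKO and 3 and 2 of WT. The unselected barcodes had 0.715% and 0.908% in cKO and 2.87% and 0.992% in WT.

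**Figure D4:**
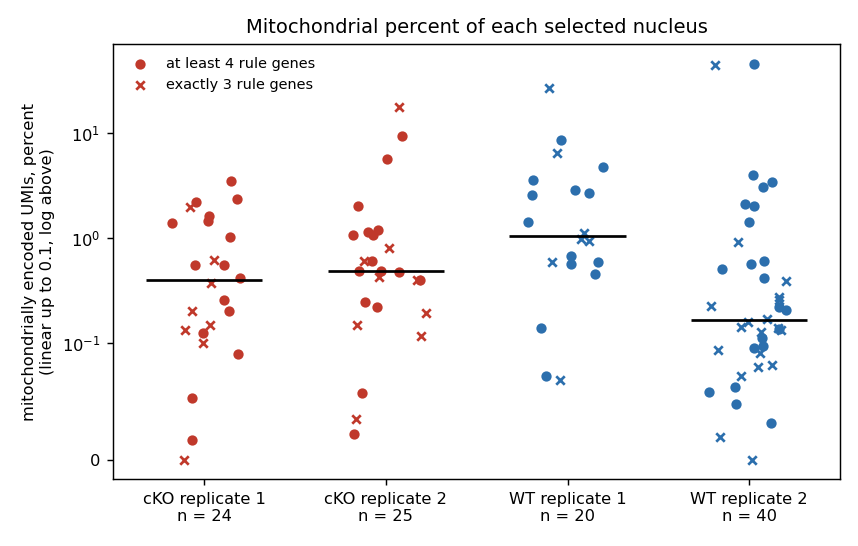
Percent of UMIs from mitochondrially encoded genes in each of the 109 selected nuclei, by library, on an axis that is linear up to 0.1 and log above. Circles are the 66 marker-rich nuclei, crosses the 43 with exactly 3 rule genes, and lines the medians of 0.395% and 0.486% in cKO and 1.05% and 0.165% in WT; 1 WT replicate 2 nucleus reaches 45.8%.

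The share of selected nuclei was slightly higher in cKO. It was 0.683% (exact binomial 95% interval 0.438 to 1.02) and 0.720% (0.467 to 1.06) in the cKO libraries, and 0.492% (0.301 to 0.759) and 0.592% (0.424 to 0.806) in the WT libraries, intervals that cover counting error only. The difference of 0.160 percentage points gave p = 0.333 in the two-sided exact permutation test, and the intervals overlapped. The marker-rich nuclei made up 0.456% and 0.461% in cKO and 0.320% and 0.311% in WT. With every barcode thinned to 1000 UMIs, which left out 365 and 370 shallower barcodes in cKO and 741 and 522 in WT, 0.413% and 0.355% were selected in cKO and 0.241% and 0.273% in WT.

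The comparison of genotypes asks whether Ago2 loss under the Slc17a6-Cre goes with other levels in the selected nuclei. None of the 4114 genes tested in the 109 nuclei passed (edgeR quasi-likelihood test on UMIs summed per library, Benjamini-Hochberg adjusted p under 0.05), 0.0% of the genes tested. DESeq2 also called 0 genes. At an unadjusted p under 0.05 edgeR counted 201 genes, 4.89%, and the libraries of the groups did not overlap for 32.2% of genes, 18.1% with cKO higher. In the 66 marker-rich nuclei 0 of 2924 genes passed (0.0%), with 109 at an unadjusted p under 0.05 (3.73%), and DESeq2 called 0. With cKO replicate 1 left out 15 genes passed in the 109 nuclei, and with cKO replicate 2 left out 51. In these fits the spread within a group comes from the 2 WT libraries, and the lone cKO library is assumed to vary like them.

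No list of transport, secretion, receptor, junction, lineage or cilium genes had a member that passed. Median log2 changes are given below for the 109 nuclei and then for the 66, with -0.01 and 0.03 over all genes tested. For ion transport 17 of 20 genes were tested, with medians of -0.05 and -0.17. In the 109 nuclei these were 8 higher and 9 lower. The one with an unadjusted p under 0.05 was Wnk1, a kinase upstream of SPAK, at 0.72. For organic solutes and metals 13 of 20 were tested, 10 of them higher and 3 lower, with a median of 0.37, and 11 in the 66, with a median of 0.21. Slc6a15, a transporter of neutral amino acids, had the smallest p among these, with 149 and 121 CPM in cKO and 57.6 and 47.1 CPM in WT, a log2 change of 1.37, adjusted p = 0.853.

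For secreted factors 9 of 20 genes were tested, with medians of 0.00 and -0.41, the second from 3 higher and 6 lower genes. Cst3 had the smallest p among these, at 92.8 and 80.8 CPM in the cKO nuclei and 412 and 138 CPM in the WT nuclei, a log2 change of -1.56 (SE 0.49, adjusted p = 0.853). The change was -0.76 without WT replicate 1 and -2.22 without WT replicate 2. The 9 receptors, 6 junction genes, 7 transcription factors and 12 cilium genes tested had medians of -0.01, 0.11, 0.29 and 0.11 in the 109 nuclei. In the 66, 9 receptors, 6 junction genes and 6 transcription factors had medians of 0.03, 0.03 and 0.14. The 11 cilium genes tested in the 66 had a median of -0.39, with 2 higher and 9 lower, against 6 higher and 6 lower in the 109. Of the miRNA pathway 11 of 15 genes were tested, with a median of 0.10, and 8 in the 66, with a median of 0.27. The 12 mitochondrially encoded genes tested had a median of -0.90, with 6 at an unadjusted p under 0.05, and none passed. In the 66 nuclei 11 were tested, with a median of -1.23 and 8 at an unadjusted p under 0.05. With nuclei of at least 5% mitochondrial UMIs left out the median was -0.37 over 11 genes, with 0 at an unadjusted p under 0.05. For glucocorticoid response 5 of 19 genes were tested (median -0.03), for the circadian clock 7 of 17 (median -0.25), and for hypoxia 2 of 14 (median 0.34). None of the stress, Hox or forebrain genes passed the low-count filter.

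The genes with the smallest p in each direction did not pass, with an adjusted p of 0.791 each. Higher in cKO was Ptgds, prostaglandin D synthase, with 304 and 646 CPM in cKO and 95.9 and 138 CPM in WT, a log2 change of 1.91 (SE 0.43). It was also higher in both cKO libraries in the marker-rich nuclei, at 395 and 985 CPM, against 44.0 and 238 CPM in WT. Fkbp5, a chaperone induced by glucocorticoids, had 134 and 115 CPM in cKO and 28.8 and 37.6 CPM in WT, a log2 change of 1.77. Its change in the unselected barcodes was 1.17. Sec24d, a coat protein of vesicle export, had 92.8 and 80.8 CPM in cKO and 19.2 and 15.7 CPM in WT, a change of 2.29. The syntaxin gene Stx2 had 11 and 17 UMIs in cKO and 1 and 2 UMIs in WT, and the RNA gene A330008L17Rik 31 and 14 UMIs in cKO and 0 and 5 UMIs in WT.

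Lower in cKO was Mbp, myelin basic protein, with 299 and 369 CPM in cKO and 4728 and 662 CPM in WT, a log2 change of -2.99 (SE 0.69). WT replicate 1 stood far above the other libraries. The change of Mbp in the unselected barcodes was -1.29, and the myelin gene Mobp had a change of -2.56 in the selected nuclei. The part of oligodendrocyte RNA in these values was not tested. Fam171b had 25.8 and 40.4 CPM in cKO and 153 and 107 CPM in WT, and the adhesion gene Tenm3 237 and 254 CPM in cKO and 719 and 489 CPM in WT. Rarb, a retinoic acid receptor, had 67.0 and 144 CPM in cKO and 278 and 342 CPM in WT. In the marker-rich nuclei Rarb had 55.4 and 63.2 CPM in cKO and 117 and 60.8 CPM in WT, so there the groups overlapped.

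**Figure D5:**
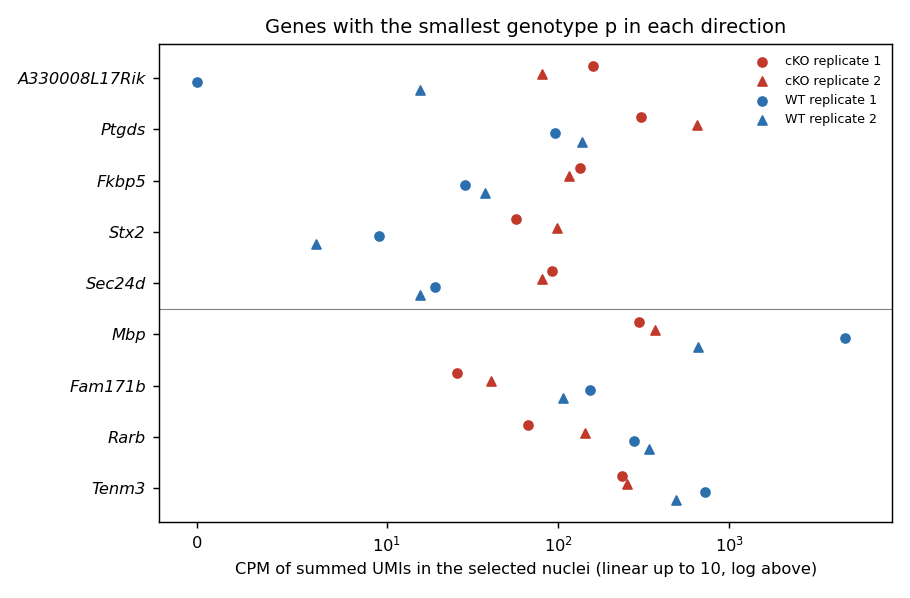
CPM over the 109 selected nuclei of genes with the smallest p, 5 higher in cKO (upper part) and 4 lower in cKO (lower part), with an axis that is linear up to 10 and log above. Red symbols are cKO libraries and blue symbols WT libraries; the groups do not overlap for these genes, which were chosen for that difference, and no gene passed the threshold.

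Whether the genotype effect in the selected nuclei differed from that in all unselected barcodes of the same libraries was tested as an interaction, with library as a block. In the 109 nuclei 9 of 16473 genes passed (0.0546%), 1 of them higher (0.00607%) and 8 lower (0.0486%) than the effect in the unselected barcodes. At an unadjusted p under 0.05 there were 598 genes (3.63%). The low-count filter ran over the selected and unselected sums together, so a gene could pass it through the unselected barcodes alone. With the selected nuclei by themselves, 4114 genes passed the filter. The lower ones were Rarb, Col8a1, Slc1a2, Col19a1, Gm26787, Lrrc4b, Adarb2 and Ndst3, and the higher one was A330008L17Rik. Col8a1, a collagen gene and one of the 25 leading genes, had 469 and 312 CPM in the cKO nuclei and 796 and 524 CPM in the WT nuclei, against 35.6 and 19.7 CPM in cKO and 14.6 and 12.6 CPM in WT in the unselected barcodes. Its difference was -1.78 (SE 0.34, edgeR adjusted p = 0.0011). Slc1a2, the glutamate transporter of astrocytes, had 51.5 and 358 CPM in the cKO nuclei and 1017 and 474 CPM in the WT nuclei, a difference of -1.79 (SE 0.40, adjusted p = 0.0278). The difference of Slc1a2 was -0.79 without cKO replicate 1 (adjusted p = 1.00) and -3.48 without cKO replicate 2.

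In the 66 marker-rich nuclei 0 of 16201 genes passed the same test (0.0%), with 419 at an unadjusted p under 0.05 (2.59%) and a smallest adjusted p of 0.141, and DESeq2 called 0 genes over the 109. Without WT replicate 2 the count was 0, without WT replicate 1 it was 4, without cKO replicate 1 it was 6 and without cKO replicate 2 it was 29. None of the 9 genes was among the 6 called without cKO replicate 1. In the marker-rich nuclei none of the 9 genes passed. There the difference of Col8a1 was -1.81 (adjusted p = 0.281), that of Rarb -0.70, of Col19a1 -0.81 and of Ndst3 -1.49. Slc1a2 had -1.94, Adarb2 -2.14, Lrrc4b -2.89, Gm26787 -4.95 and A330008L17Rik 3.52. The genotype test in the unselected barcodes called 0 of 17537 genes by edgeR (0.0%), with 1001 at an unadjusted p under 0.05 (5.71%). There the libraries of the groups did not overlap for 33.8% of genes, 18.0% with cKO higher and 15.8% with cKO lower.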

How the data were processed

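The authors deposited UMI counts per gene and barcode for each library, per the labels from Chromium 3′ v3 nuclei. Cell Ranger 4.0.0 and the genome build GRCm38 appear in the submitters' processing notes, as does Seurat 3.2.3. The annotation release, the intron setting and strand use in counting are not given in the sources used here. The 4 libraries held 10845009 and 11439733 UMIs in 3512 and 3472 cKO barcodes, and 13107920 and 29317266 UMIs in 4066 and 6752 WT barcodes, over 32286 features. Between libraries, summed counts differed beyond sampling noise (chi-square per degree of freedom 9.94 to 34.6).

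The rule was applied to each barcode, and counts were summed per library and tested with edgeR 4.0.16 in R 4.3.3 (filterByExpr with a minimum count of 10, TMM, quasi-likelihood). Benjamini-Hochberg adjustment ran over all genes of a fit at 0.05. DESeq2 1.42.0 was an alternative. The scripts were tested on simulated data. Standard errors (SE) come from the log2 change and the F statistic. Shares have exact Clopper-Pearson intervals. Other alternatives were the low-count filter, a 5% mitochondrial maximum, at least 4 rule genes with 2 other than Ttr and Htr2c, thinning to 1000 UMIs and leaving out each library. Named genes were those past the threshold, otherwise the 5 smallest p in each direction, Ago2, examples of each list by level or p, and the 25 genes by ratio. The members and gene lists were chosen with earlier results of these data known. Gene coordinates and sequences are from RefSeq (GRCm38.p6). The exons of Htr2c and Trpm3, used to place miRNAs in introns, are from GENCODE M21. In RNA summed over nuclei, fewer positive nuclei and less RNA per nucleus cannot be told apart. Results for 6 genes that these rules or lists took in are not reported here.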

Additional observations from a re-analysis of the deposited data

Results flagged for a closer look

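The results below were picked out because the genotype effect, cKO over WT, in the 109 selected nuclei differed from that in the unselected barcodes of the same libraries (edgeR interaction test, adjusted p under 0.05). Each value is the log2 effect in the selected nuclei minus that in the unselected barcodes, from 1 fit of both. The effects given beside it come from separate fits of each set, so their difference need not equal it.

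Rarb differed by -2.06, with an effect of -1.62 in the selected nuclei and 0.37 in the unselected barcodes. Col8a1 differed by -1.78, with effects of -0.76 and 1.01. Slc1a2 differed by -1.79, with effects of -1.87 and -0.30. A330008L17Rik differed by 2.84, with effects of 3.28 and 0.48. Lrrc4b, a synaptic adhesion gene, differed by -2.75, with 2 and 3 UMIs in the cKO nuclei and 12 and 22 in the WT nuclei. Adarb2, an RNA-binding protein gene of interneurons, differed by -1.74, and Ndst3, an enzyme of heparan sulfate, by -2.12.

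For the other two genes 1 library held nearly all UMIs. Col19a1 differed by -4.32, with 1 and 0 UMIs in the cKO nuclei and 1 and 26 in the WT nuclei. Gm26787 differed by -4.97, with 0 and 1 UMIs in the cKO nuclei and 0 and 39 in the WT nuclei. Neuron marker levels in the selected nuclei were 12975 and 9023 CPM in cKO and 8104 and 10877 CPM in WT. Their part in these differences was not tested.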

How the results depend on the processing

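The share of selected nuclei stayed higher in cKO, and the mitochondrial percent of summed UMIs lower in cKO, in the difference of group means, under every alternative run for them. Without the 2 nuclei over 40% mitochondrial, also chosen after seeing the data, the mitochondrial difference was -0.115 points over all selected nuclei and -0.227 in the marker-rich ones, and the groups overlapped. With 1 library left out, the share difference ran from 0.109 to 0.210 percentage points and the mitochondrial difference from -1.66 to -0.748 points. The Hox share, a difference of 2 points from 1 nucleus, was 0 with at least 4 rule genes and with thinning to 1000 UMIs, and 0 to 4 points with 1 library left out. The count of 0 genotype genes became 13 with no low-count filter (17580 genes), stayed at 0 under a 5% mitochondrial maximum, and ran from 0 to 51 with 1 library left out. In the marker-rich nuclei that last range was 0 to 104. The count of 9 interaction genes became 0 with DESeq2, 5 with the 5% maximum, 0 with at least 4 rule genes, and 0 to 29 with 1 library left out. Without the deepest nucleus, an alternative chosen after seeing the data, the counts were 0 and 11, and 6 of the 9 genes were among the 11. The leave-out and marker-rich DESeq2 fits for the 66 nuclei were also added then.

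Ago2 turned to -0.67 without cKO replicate 2, in a range up to 0.60 with 1 library left out. Gm26787 turned to 6.73 without WT replicate 2 (SE 10.9), in a range down from there to -11.98. Of the other alternatives for named genes, 242 kept direction and side of the threshold, 51 lost it and 15 gained it. The cause was not tested. The deviations of same-numbered libraries from their group means had a correlation of -0.0851 over 4114 genes. With 2 libraries per group both pairs give this same value, so it cannot decide whether the numbers mark pairs. The numbers were not taken as pairs. With a replicate block 0 genes passed and 149 had an unadjusted p under 0.05. Depth limits genes with few UMIs: the marker-rich nuclei of WT replicate 1 gave 68155 UMIs in all.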
